A study of Danio rerio with 10 samples.

Results

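Of the 15369 genes in the deposited table of FAC-sorted zebrafish spinal interneurons, 86 had a mean of at least 10 normalized reads in uninjected controls and a mean at least 2-fold higher in *hmx2;hmx3a* double knockdown (DKD) morphants. They were chosen by these group means, and the targeted genes *hmx2* and *hmx3a*, which also met both criteria, were left out. The values that chose the members are therefore given as a description, with no test. The control mean reached 10 in 8766 genes, and 88 of these, the members plus the targeted genes, were at least 2-fold higher in the morphants (1.00% of the 8766 genes). In the opposite direction 181 genes were at least 2-fold lower (2.06%). The members were a mixed group. They held 7 haemoglobin chains and 9 genes of pterin, purine and pigment cell biology beside regulators, filaments and receptors of neurons. They are therefore called here by the rule that chose them and not by a cell type. Roles were assigned to members only, so a count by role has no share of all such genes beside it.

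Bulk RNA-Seq was performed on 5 uninjected control and 5 DKD morphant samples, each of EGFP-positive cells sorted from trunks at 27 h. All embryos were wild type by their labels and carried the SU41 transgenes, in which the *hmx* enhancer CNEIII with a *cfos* promoter drives GAL4-VP16, and GAL4-VP16 drives *UAS:EGFP*, in V1 and dI2 spinal interneurons. Morphants received 3.5 nl of a mixture of *hmx2* and *hmx3a* morpholinos, at 2 ng/nl each, with a *p53* morpholino at 5 ng/nl, at the one-cell stage. They were kept at 32 °C from 9 h onwards, because their development was delayed, while controls stayed at 28.5 °C. Injected embryos that were severely abnormal, or that lacked a downward tail curl, had been discarded. Morphants were staged by eye, from the size of head and eyes and the head-trunk angle, so the match to 27 h was approximate. Injection, the *p53* morpholino, temperature, staging and this selection differed along with the knockdown. Their parts in any difference cannot be told apart. The table gives 1 mean per gene and group, so no spread between samples, interval or test stands beside any value. In bulk samples, more cells of a type and more RNA per cell cannot be told apart either.

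V1 interneurons are inhibitory neurons of the ventral spinal cord that express *en1b*. The dI2 interneurons arise more dorsally and are excitatory. Hmx2 and Hmx3a are homeodomain transcription factors of dI2 and V1 cells, and a translation-blocking morpholino is an antisense oligomer that covers the start codon of a transcript and hinders ribosomes without cutting the RNA. Transcript levels of a targeted gene therefore do not show whether its protein was lost. The *hmx* oligomers are shown because they define the treatment. Each is written 5′ to 3′, with the complement of the ATG start codon in capitals.
hmx2 morpholino: ttccgctgtcctccgaattattCAT
hmx3a morpholino: acgtatcctgtgttgtttcgggCAT
The start-codon complement occupies bases 23 to 25 of both 25-base oligomers. The mean of *hmx2* was 215 normalized reads in controls and 695 in morphants, and that of *hmx3a* 736 and 1804.

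The markers of the sorted cells were present in both groups. The mean of *en1b*, a V1 marker, was 754 in controls and 672 in morphants. *FOXD3* had means of 340 and 395, and *lhx5* of 557 and 441. Of the 21 dI2 and V1 marker genes found in the table, 18 had a control mean of at least 10. At least 2-fold higher in morphants were 3 of these, namely both targeted genes and the member *GAD1*, and 0 were at least 2-fold lower. The median log2 ratio of the 18 (morphant over control) was 0.16, beside 0.001 for all 8766 genes. Without those 3, the other 15 had a median of -0.09, with 8 below 0 and 7 above. Gene symbols are written as the table of gene names has them. A symbol in capitals is the name of the human counterpart and does not say which of several zebrafish copies the row is. The Ensembl identifier is therefore added to a member where several rows share its symbol.

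Most members lay near the 2-fold limit. Their ratio of morphant to control mean ran from 2.00 to 11.4 with a median of 2.44, 44 of the 86 were under 2.5, and 27 were at least 3. Control means ran from 10.0 to 330, and 40 members had a control mean under 20. The share of genes that were members was 1.63% at control means of 10 to 20, 0.946% from 20 to 50, 0.777% from 50 to 100, 0.431% from 100 to 200 and 0.134% at 200 or more. The share was thus lower in each higher class of control mean. The last class held 1 member, *gch2*, among 746 genes. Both targeted genes were also among these 746 and at least 2-fold higher, but are not counted as members. In the same 5 classes the share of genes at least 2-fold lower was 3.01%, 2.06%, 1.14%, 1.08% and 2.28%. Together the members held 0.413% of the summed means of all genes in controls and 1.31% in morphants. Haemoglobin chains made up 19.5% of the summed difference of the members, the pterin, purine and pigment cell genes 18.7% and transcription regulators 16.5%.

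**Figure D1:**
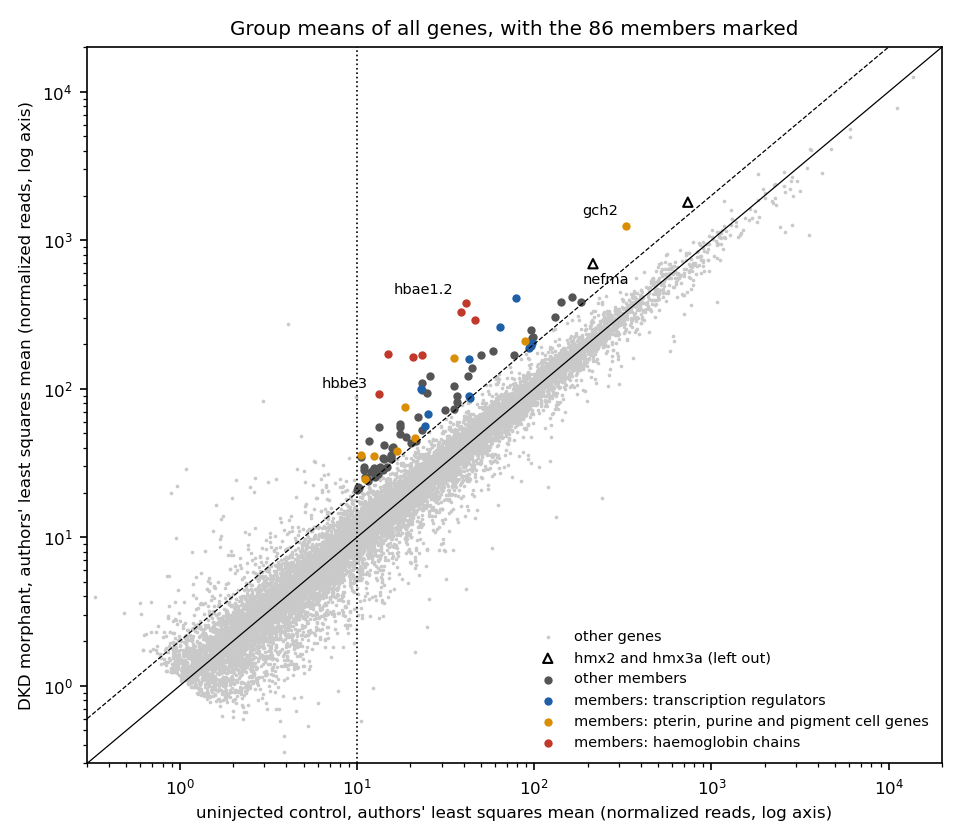
Each point is 1 gene, with the authors' least squares mean in uninjected controls on the x axis and in DKD morphants on the y axis, both in normalized reads on log axes. The solid line marks equal means, the dashed line a ratio of 2 and the dotted line a control mean of 10. The 86 members, coloured by role, fill the wedge above the dashed line and right of the dotted line, and the 7 haemoglobin chains stand highest above it.

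The largest ratios among the members belonged to haemoglobin chains, the alpha-type and beta-type globins that fill red blood cells. All 7 were between 6.27-fold and 11.4-fold higher in morphants, and they were the only members with a ratio of at least 6. *HBE1* (ENSDARG00000115405) had a mean of 14.95 in controls and 171 in morphants, and the other rows of that symbol had 38.5 and 328 (ENSDARG00000087390) and 46.2 and 290 (ENSDARG00000113599). *HBE1* is the human name of an embryonic beta-type chain. The embryonic alpha chains *hbae1.1*, *hbae1.2* and *hbae1.3* had 23.3 and 168, 41.0 and 380, and 20.7 and 163. The beta chain *hbbe3* had 13.2 and 92.0. The globin genes resemble each other closely, so reads may have been divided among them in counting, and the separate rows are uncertain for that reason. Summed over the 7 rows, the means were 198 in controls and 1592 in morphants, a ratio of 8.05. An eighth chain, *hbae3*, missed the limit on the control mean with 9.82 and 87.8.

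Markers of blood cells moved with these chains. Of 13 blood genes in the table, 4 had a control mean of at least 10, and 3 of these were at least 2-fold higher, all of them haemoglobin chains. Of the rest, with a control mean under 10, a further 7 were at least 2-fold higher. Over the whole table, 8766 of 15369 genes reached a control mean of 10, and 277 of the rest were at least 2-fold higher. These included *alas2*, the erythroid enzyme that starts haem synthesis, with 1.60 and 16.4, the anion exchanger *SLC4A1* of the red cell membrane, with 2.65 and 25.2, and the carbonic anhydrase *cahz*, with 3.17 and 23.7. The summed means of the list were 121 in controls and 677 in morphants. These sums include *hbae3* and the 3 haemoglobin members, which the rule chose for being higher. The 1 other gene with a control mean of at least 10 had a log2 ratio of 0.27. Of the 7 haemoglobin members, 4 are not part of the list, namely the *HBE1* rows and *hbae1.2*. The part of blood cells in the result was not tested. Other haem and iron genes among the members were *tfr1b*, a transferrin receptor that takes up iron, with 12.1 and 28.1, and *blvrb*, a biliverdin reductase of haem breakdown, with 10.3 and 21.3. Both had lower ratios, 2.32 and 2.07, than any haemoglobin chain. Of 10 other genes of haem synthesis and iron uptake, looked up after the members' values were seen, 8 had a ratio above 1. Of 4 other genes of haem breakdown 2 did, and *HMOX1*, haem oxygenase 1, had 3.05 and 1.23. *ALAS1*, the housekeeping counterpart of *alas2*, had 222 and 179.

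Yellow pigment cells of fish, the xanthophores, store pteridines made from GTP, and GTP comes from purine synthesis. Both pathways were among the members. *gch2*, GTP cyclohydrolase 2, which starts pteridine synthesis, had a mean of 330 in controls and 1252 in morphants, a ratio of 3.80, and alone made up 12.9% of the summed difference of the members. *aox5*, an aldehyde oxidase and a common xanthophore marker, had 35.4 and 162. *slc2a11b*, of the sugar transporter family, had 18.7 and 75.2, and the tetraspanin *tspan36*, known from pigment cells, had 21.2 and 46.3. Each of the 4 was thus at least 2.18-fold higher.

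De novo purine synthesis was represented by 4 of its 6 enzyme genes in the table. *PPAT*, which catalyses the committed first step, had 12.5 and 35.4. *GART*, *PFAS* and *ATIC*, which act at later steps, had 11.1 and 24.5, 10.6 and 35.7, and 16.9 and 38.3. The remaining enzymes, looked up after the members were known, were higher by less than 2-fold, with *PAICS* at 43.2 and 81.9 and *ADSL* at 30.8 and 44.4. *IMPDH1* (ENSDARG00000029524), which turns IMP towards GTP, had 88.8 and 211. *GMPS*, the next enzyme of that branch, had 73.0 and 140, while *IMPDH2* had 24.6 and 26.2. The row for the other *IMPDH1* copy was at 5.24 and 4.53, so the copies differed in direction.

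Further pigment and neural crest genes were examined beside the members. Of 21 such genes in the table, 11 had a control mean of at least 10. Of these 4 were at least 2-fold higher, all of them members, 0 were at least 2-fold lower, and the median log2 ratio was 0.86. The 7 that were not members had a median log2 ratio of 0.16, with 3 below 0. Of the rest, with control means under 10, a further 8 were at least 2-fold higher. Over the whole table, 8766 of 15369 genes reached that mean, and 277 of the others were at least 2-fold higher. Among the 8 were *SOX10* with 6.30 and 24.7, *MITF* with 3.08 and 9.65 and *pnp4a* with 3.24 and 9.96. These 3 named genes are regulators of neural crest and melanophore fate and an enzyme gene of iridophores. Melanin enzyme genes were slightly lower in morphants. *DCT* had 12.2 and 11.5, and the rows of *TYRP1* had 16.9 and 15.4, and 11.9 and 10.6. The summed means of the list were 1132 in controls and 2430 in morphants. These sums include the 4 members, which the rule chose for being higher, among them *gch2* with 330 and 1252. The list also holds *FOXD3*, a dI2 gene, and *ATIC* and *GART*, which dividing cells use as well. The part of pigment cells in the result was not tested.

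**Figure D2:**
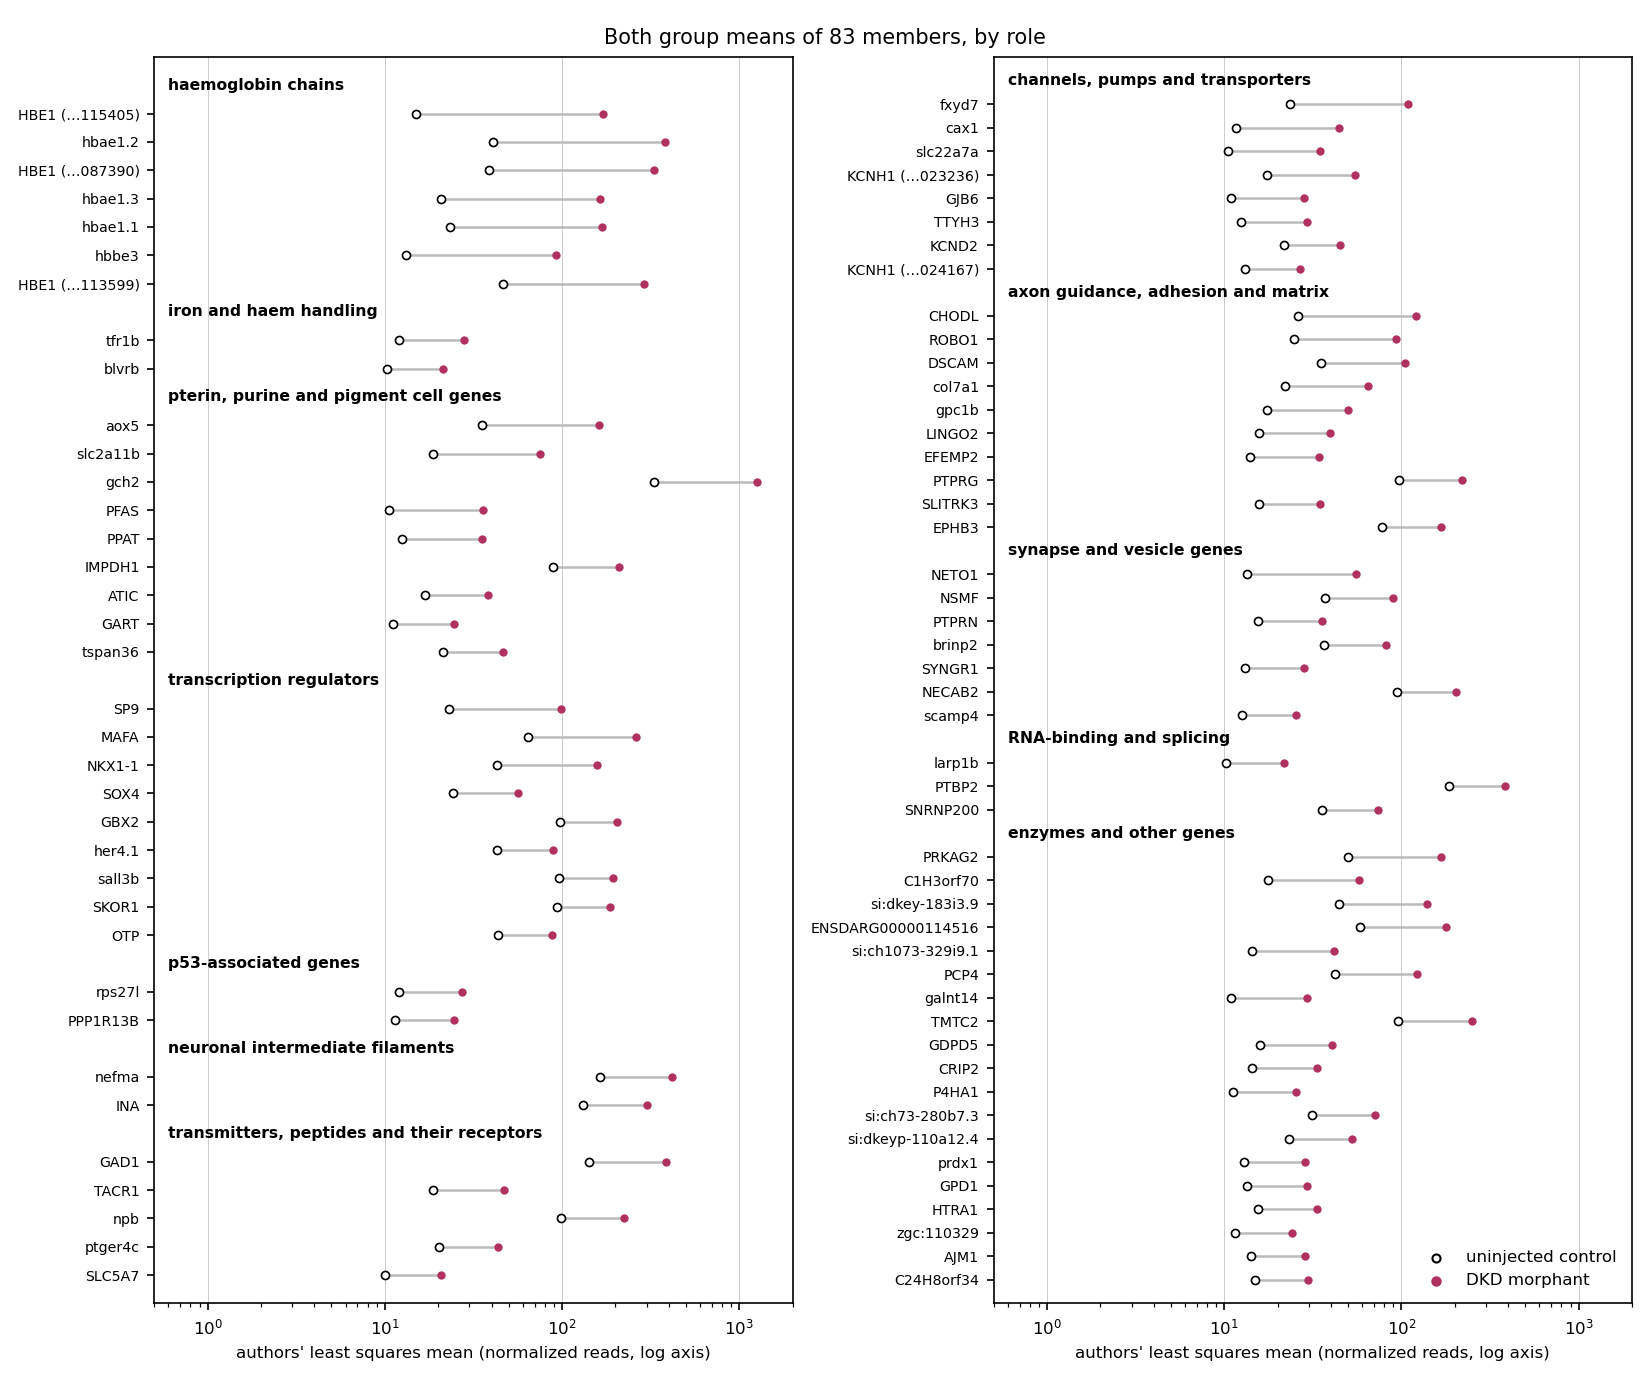
Each row is 1 of 83 members, with the mean in uninjected controls as an open circle and in DKD morphants as a filled circle, in normalized reads on a log axis, grouped by role and ordered by ratio within a role. The longest lines are those of the haemoglobin chains, with ratios of 6.27 to 11.4, and *gch2* has the point farthest to the right, at 1252.

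Transcription regulators gave 11 members, a count with no share of all such genes beside it, because roles were assigned to members only. *MAFA*, a basic leucine zipper factor, had a mean of 64.4 in controls and 261 in morphants, a ratio of 4.05.

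Homeodomain and zinc finger factors had ratios from 2.00 to 4.33. *SP9*, a zinc finger factor, had 22.9 and 99.0, while the *SP8* rows had 33.9 and 52.3, and 34.6 and 42.4. *NKX1-1*, a homeodomain factor, had 43.0 and 157, and its relative *nkx1.2la* had 1.18 and 7.90. *GBX2*, a homeodomain factor known for positioning the midbrain-hindbrain boundary, had 97.1 and 205, and its relative *GBX1* had 14.8 and 13.4. *OTP*, a homeodomain factor known from hypothalamic neurons, lay at the limit of the rule with 43.5 and 87.3 (ENSDARG00000058379), and its other row had 2.89 and 4.06. *sall3b*, a spalt-type zinc finger gene, had 96.2 and 195, and *SALL1*, *SALL3*, *SALL4* and *sall2* had ratios of 1.63, 1.22, 1.25 and 0.753. Of these families, only that of *NKX1-1* had a further gene at a ratio of 2 or more.

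The remaining regulators belonged to families with other patterns. *SKOR1*, a co-repressor of the SKI family, had 93.2 and 187. Its relatives had larger ratios from lower control means, with *skor1a* at 7.94 and 105 and *skor2* at 0.334 and 3.94. *SOX4* (ENSDARG00000004588), an HMG-box factor of differentiating neurons, had 24.3 and 56.1. The other *SOX4* row was at 8.75 and 8.31, and both *SOX11* rows were lower in morphants, with ratios of 0.871 and 0.907, while *sox12* had 1.09 and 29.0. *her4.1*, a bHLH repressor and target of Notch signalling, had 43.1 and 89.4. The 4 other *her4* rows were between 1.56-fold and 1.67-fold higher. These genes are near-identical copies, so the place of *her4.1* alone above the limit is uncertain. Among 71 signalling genes of the TGF-beta, Wnt, FGF and Notch pathways with a control mean of at least 10, *her4.1* was the only one at least 2-fold higher, and 3 were at least 2-fold lower. Spinal cord progenitor markers gave the same single gene among 15.

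Genes tied to the p53 response were also present. *rps27l*, a target of this response in mammals, had a mean of 11.96 in controls and 27.3 in morphants. *PPP1R13B* (ENSDARG00000004377), which encodes an apoptosis-stimulating protein in mammals, had 11.3 and 24.5, and its other row had 59.9 and 70.0. *CCNG1*, a cyclin gene of the same response, lay just outside the rule with 186 and 371. On a list of p53 pathway genes, 17 with a control mean of at least 10 were not members. Their median log2 ratio was -0.05, with 8 above 0 and 9 below. Some genes of the response differed little between the groups. *mdm2*, a ubiquitin ligase gene, had 19.9 and 20.7, and *cdkn1a*, the cell cycle inhibitor p21, had 3.88 and 4.86.

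Neuronal intermediate filament genes, which build the cytoskeleton of axons, gave 2 members. *nefma*, the medium neurofilament chain, had a mean of 163 in controls and 417 in morphants. *INA* (ENSDARG00000053248), alpha-internexin, had 130 and 303. The list of filament genes also names *gfap*, *vim* and *viml*, which are not neuronal filament genes. Of its 8 genes with a control mean of at least 10, *nefma* and *INA* were the only ones at least 2-fold higher. *nefmb*, *neff1* and *NEFL* had 562 and 806, 125 and 188, and 184 and 251. *PRPH*, the peripherin gene of sensory and motor neurons, was lower, with 63.2 and 29.3, and the other *INA* row had 9.29 and 6.53. From a low control mean, *nefla* had 1.97 and 18.4. *nefma*, *INA* and *SKOR1* were also on the list of 12 V0v interneuron genes that the study had examined. Of 9 with a control mean of at least 10, these 3 were at least 2-fold higher and 0 were at least 2-fold lower, and the median log2 ratio was 0.75. The 6 that were not members had a median of 0.55, with 5 above 0 and 1 below 0, at a log2 ratio of -0.55. That value is also the lowest on a list of markers of other spinal neurons, which shares only *evx1* and *evx2* with this one. The study did not detect *evx2* in these samples, so by elimination the lower gene is the V0v marker *evx1*. The other genes of that list above a control mean of 10 included *UNCX*, with 73.6 and 130 in one row and 61.7 and 75.2 in the other, and *EBF3*, with 70.5 and 119. The study chose that list in V0v cells, not in the cells sorted here. From these same samples it reported higher *skor1a*, and possibly higher *skor1b* and *nefma*. In *hmx2;hmx3a* deletion mutants it counted more spinal cells with *skor1a* or *nefma*. Cell numbers for *skor1b*, *skor2*, *ebf3a* and *neff1* did not differ significantly there. Since *skor1a* and *skor2* have rows of their own, the member *SKOR1* is probably *skor1b*, going by elimination only.

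Transmitter genes among the members spanned more than one phenotype. *GAD1* (ENSDARG00000027419), glutamate decarboxylase, makes GABA, and had a mean of 142 in controls and 384 in morphants. The second *GAD1* row had 23.4 and 40.8, and *GAD2* had 2.77 and 5.21. Transporter genes of GABA and glycine did not follow *GAD1*. *SLC32A1*, the vesicular transporter, had 613 and 486, and *SLC6A5*, the glycine transporter, had 532 and 415. *GAD1* was the only one of 7 GABAergic and glycinergic genes with a control mean of at least 10 that was at least 2-fold higher, and the median log2 ratio of these 7 was -0.20.

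*SLC5A7*, the choline transporter of cholinergic neurons, had the lowest control mean of any member, with 10.0 and 20.7. It was the only one of 6 motoneuron markers with a control mean of at least 10 to reach a ratio of 2. *CHAT*, which makes acetylcholine, had 15.6 and 10.3. *npb*, neuropeptide B, had 99.1 and 224. *TACR1* (ENSDARG00000035533), the receptor of substance P, had 18.8 and 47.2, and the prostaglandin receptor gene *ptger4c* had 20.2 and 43.4. Among other transmitter receptors, 0 of 43 with a control mean of at least 10 reached a ratio of 2. *grin2db*, an NMDA receptor subunit, was nearest with 13.6 and 27.3. The table holds 77 such receptor genes, including the 43. At least 2-fold higher were 10 of those with a control mean under 10, and 2 were at least 2-fold lower. Over the whole table, 8766 of 15369 genes reached a control mean of 10, and 277 of the rest were at least 2-fold higher.

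Channels, pumps and transporters gave 8 members, with ratios from 2.05 to 4.69. This count by role likewise has no share of all such genes beside it. *fxyd7*, a small regulator of the sodium pump, had 23.4 and 110. *KCNH1*, a voltage-gated potassium channel of the ether-a-go-go family, was represented by both of its rows, with 17.5 and 54.9 (ENSDARG00000023236) and 13.1 and 26.9 (ENSDARG00000024167). No other of the 9 KCNH genes in the table had a ratio above 1.04. *KCND2*, an A-type potassium channel, had 21.7 and 44.7, while *KCND3* had 62.3 and 70.5. These 3 rows were the only ones at least 2-fold higher among 61 voltage-gated and potassium channel genes with a control mean of at least 10. The median log2 ratio of the 61 was 0.01, and 1 was at least 2-fold lower. The table holds 118 such channel genes, including the 61. At least 2-fold higher were 6 of those with a control mean under 10, and 2 were at least 2-fold lower. Over the whole table, 8766 of 15369 genes reached a control mean of 10, and 277 of the rest were at least 2-fold higher. *cax1*, a cation/proton exchanger, had 11.7 and 44.5, and *slc22a7a*, an organic anion transporter gene, had 10.5 and 34.7. The connexin gene *GJB6* and the tweety family gene *TTYH3* (ENSDARG00000034473) had ratios of 2.57 and 2.33. The other *TTYH3* row had higher means that differed little, 116 and 119.

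Axon guidance and adhesion genes included receptors that steer growing axons. *ROBO1*, a receptor for Slit repellents, had a mean of 24.9 in controls and 93.1 in morphants, while *ROBO3* had 251 and 300 and *ROBO2* had 289 and 230. Its ligand gene *SLIT2* lay just outside the rule with 16.8 and 33.7. *DSCAM* (ENSDARG00000024865), an immunoglobulin-type adhesion receptor, had 35.1 and 104, its other row had 20.8 and 25.7, and *DSCAML1* had 62.0 and 46.1. *EPHB3* (ENSDARG00000031548), a receptor for ephrin-B ligands, had 77.2 and 168. *ROBO1*, *DSCAM* and *EPHB3* were the only genes at least 2-fold higher among 51 axon guidance genes with a control mean of at least 10. Of the 51, 0 were at least 2-fold lower, and their median log2 ratio was 0.14. The table holds 107 axon guidance genes, including the 51. At least 2-fold higher were 8 of those with a control mean under 10, and 3 were at least 2-fold lower. Over the whole table, 8766 of 15369 genes reached a control mean of 10, and 277 of the rest were at least 2-fold higher.

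*CHODL*, chondrolectin, which is needed for motor axon growth in zebrafish, had 26.0 and 121. *PTPRG* (ENSDARG00000060123), a receptor tyrosine phosphatase, had 96.9 and 220. The leucine-rich repeat genes *LINGO2* (ENSDARG00000069970) and *SLITRK3* had 15.7 and 39.7, and 15.6 and 34.7. The second *LINGO2* row moved the other way, with 109 and 81.3. *gpc1b*, a glypican that carries heparan sulphate, had 17.4 and 49.8, and the other *GPC1* row had 137 and 218. Matrix genes were *col7a1*, which encodes the collagen of anchoring fibrils, with 22.1 and 64.9, and *EFEMP2* (ENSDARG00000094324), which encodes an elastic fibre protein, with 14.0 and 34.3. The other *EFEMP2* row had 11.4 and 20.0.

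Synapse and vesicle genes were fewer and closer to the limit. *NETO1*, which encodes an accessory subunit of glutamate receptors, had 13.4 and 55.1, a ratio of 4.12, and the other 6 lay between 2.02 and 2.42. *NECAB2*, a neuronal calcium-binding protein gene, had 94.7 and 203. *NSMF* (ENSDARG00000101234), which encodes a protein that signals from synapse to nucleus, had 36.9 and 89.4, and its other row was lower in morphants with 30.4 and 20.9. *brinp2* had 36.4 and 81.9, and its relative *BRINP3* was lower with 96.3 and 47.5. *SYNGR1*, a synaptogyrin of synaptic vesicles, had 13.0 and 28.4, *PTPRN*, a dense-core vesicle protein gene, had 15.6 and 35.7, and *scamp4* had 12.6 and 25.4. *SYNGR1* was the only one of 36 synaptic vesicle and release genes with a control mean of at least 10 that was at least 2-fold higher, and the median log2 ratio of these 36 was -0.14.

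Splicing genes included *PTBP2*, a repressor of exons in developing neurons, with a mean of 185 in controls and 386 in morphants (ENSDARG00000015901). Its other row had 22.0 and 31.2, and the *PTBP1* rows had ratios of 0.979 and 0.873. *SNRNP200*, a helicase of the spliceosome, had 35.5 and 73.3, and the La-related gene *larp1b* had 10.2 and 21.7.

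A further 19 members were enzymes and genes of other or unknown roles, with ratios between 2.01 and 3.36. *PRKAG2*, a regulatory subunit of the AMP-activated kinase, had 50.05 and 168. *TMTC2* (ENSDARG00000045753), a mannosyltransferase gene, had 95.3 and 250, and *PCP4*, a small calmodulin regulator, had 42.3 and 122. The uncharacterized rows ENSDARG00000114516, *si:dkey-183i3.9* and *C1H3orf70* (ENSDARG00000091513) had 58.5 and 178, 44.5 and 139, and 17.6 and 57.5. The second *C1H3orf70* row was lower, with 13.1 and 6.17. Enzymes with control means under 20 were *GPD1* (ENSDARG00000043180), *P4HA1*, *galnt14*, *GDPD5* (ENSDARG00000076962), *HTRA1* and *prdx1*, with ratios between 2.16 and 2.71. The other rows of *GPD1* and *GDPD5* had 5.80 and 6.55, and 2.06 and 3.24. *AJM1*, *CRIP2* (ENSDARG00000070670), *zgc:110329*, *si:ch1073-329i9.1*, *si:ch73-280b7.3*, *si:dkeyp-110a12.4* and *C24H8orf34* completed the set, with ratios from 2.01 to 2.91. The other *CRIP2* row had higher means that differed little, 116 and 109.

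Some members shared their symbol with other rows. Among members, 23 symbols were carried by more than 1 row of the table, and these rows comprised 26 members and 21 other genes. None of the 21 had a ratio of 2 or more. For 12 of them it lay between 1 and 2, and for 9 it was under 1. Over all 15369 genes, 363 besides the targeted genes had a ratio of 2 or more, and the median ratio was 1.01. A ratio under 2 in these rows is thus no trait of copies of members. The control mean was at least 10 in 10 of the 21. A row with a control mean of at least 10 and a ratio of 2 or more would itself be a member, so the rule fixed part of this pattern.

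**Figure D3:**
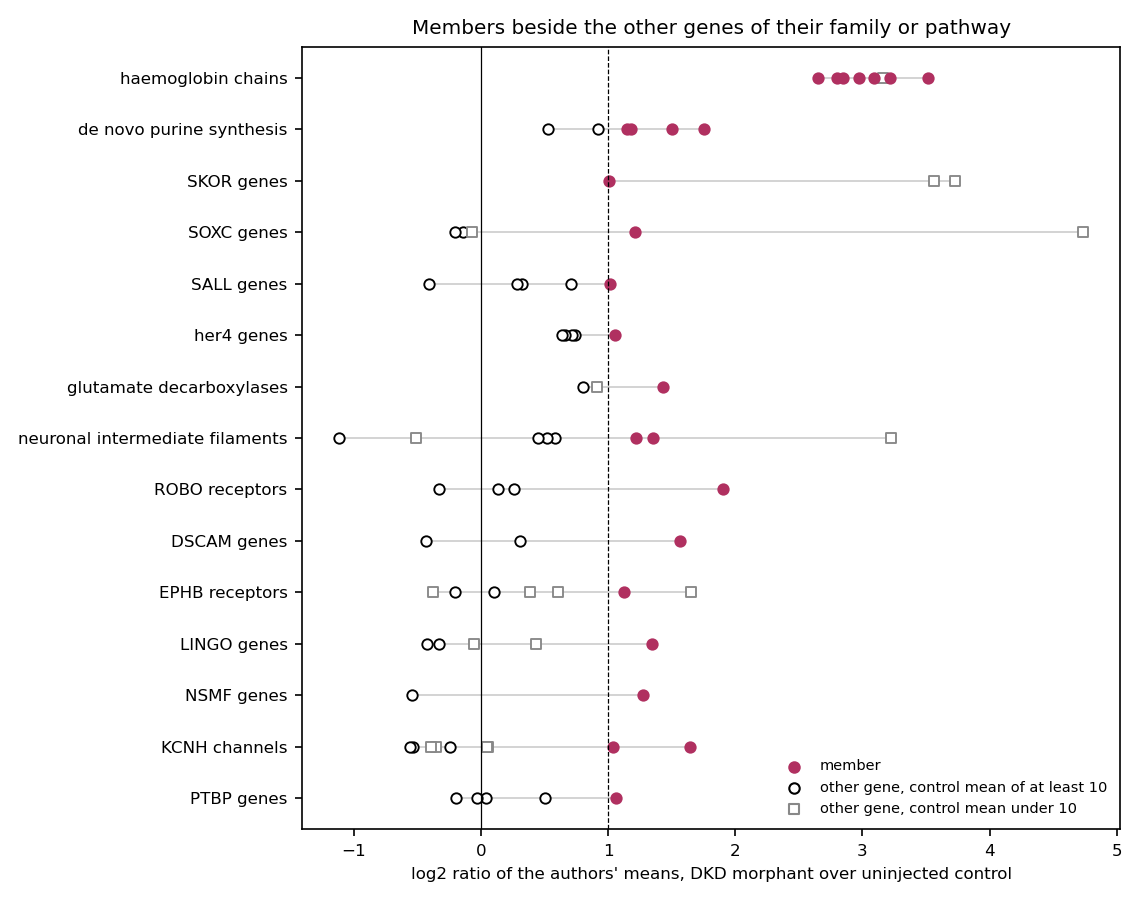
Each row is a family or pathway chosen after the members were known, and each symbol is 1 gene at its log2 ratio of the authors' means, DKD morphant over uninjected control. Filled circles are members, open circles other genes with a control mean of at least 10 and grey squares other genes below it. The haemoglobin chains lie together between ratios of 6.27 and 11.4, whereas in the KCNH, LINGO and NSMF families members above the dashed 2-fold line share a row with genes below 0.

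Beside the higher blood and pigment genes, most markers of skin and muscle were lower in morphants. Of 20 skin genes with a control mean of at least 10, 15 were at least 2-fold lower and 0 were at least 2-fold higher, with a median log2 ratio of -1.34. The epidermal keratin genes *krt4* and *cyt1* had means of 3557 and 1077, and 610 and 227. The summed skin means were 5771 in controls and 1903 in morphants. Of 18 muscle genes with such a control mean, 3 were at least 2-fold lower and 0 at least 2-fold higher, with a median of -0.48. Of these, 14 were below 0 and 4 above. The table holds 21 muscle genes, and 2 of those with a control mean under 10 were at least 2-fold higher. Over the whole table, 8766 of 15369 genes reached that mean, and 277 of the others were at least 2-fold higher. No skin or muscle gene was a member. The part of skin and muscle cells in the members' values was not tested.

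**Figure D4:**
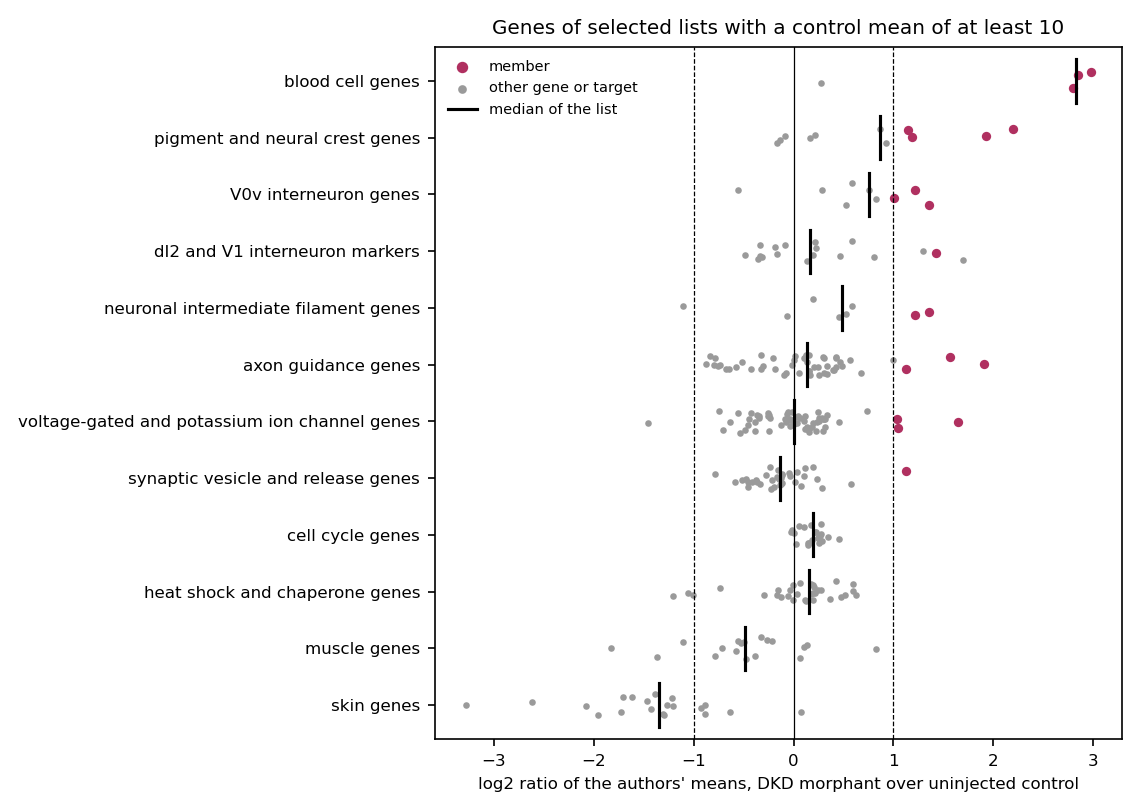
Each point is 1 gene of a list with a control mean of at least 10, at its log2 ratio of the authors' means, DKD morphant over uninjected control, and black bars are list medians. Members, in colour, lie right of the 2-fold line by the rule that chose them. The medians of the pigment list (0.86) and V0v list (0.75) include such members and are 0.16 and 0.55 without them. The skin list, which holds no member, has its median at -1.34.

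Several genes lay close to the limits of the rule. Just inside the ratio limit were *OTP*, *C24H8orf34*, *SKOR1*, *scamp4* and *sall3b*, with ratios of 2.00, 2.01, 2.01, 2.02 and 2.02. Just outside it were *grin2db*, *SLIT2*, *CCNG1*, *COL2A1* and *ppp2r2ba*, with 1.999, 1.998, 1.99, 1.99 and 1.98. Just inside the limit on the control mean were *SLC5A7*, *larp1b*, *blvrb*, *slc22a7a* and *PFAS*, with control means of 10.0, 10.2, 10.3, 10.5 and 10.6. Just outside it were *CBLN2*, *COL9A2*, *hbae3*, *si:dkey-234i14.2* and *EPHA4*, with 9.93, 9.86, 9.82, 9.64 and 9.56. *CBLN2*, a synapse organizer gene, had a morphant mean of 88.0, a ratio of 8.86. In all, 277 genes with a control mean under 10 were at least 2-fold higher in morphants.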

How the data were processed

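In the authors' pipeline in Partek Flow, per the labels and Methods, trimmed reads were mapped with STAR 2.6.1d to the Lawson Lab annotation, TMM-normalized and compared between groups by Gene-Specific Analysis. The deposited values used are the authors' least squares means of normalized reads per gene, a signal with 1 value for each group of 5 samples. They are not divided by gene length. The limit on the control mean, the classes and ranks of means, and the sums over genes therefore depend on gene length too. The genome build is not given in the sources used here. The number of reads behind each mean was not used here. The 4 columns of the authors' own comparison (P-value, FDR, ratio and fold change) were not used. Ratios were computed as morphant over control. Symbols matched 14905 of 15369 identifiers and 85 of 86 members. The members and the 32 gene lists were chosen with earlier results of these data known, and roles and families were assigned after the values were seen. Results for 3 members are not reported here. The others were named by role, with both means for the 20 largest ratios, the 20 highest morphant means, members of lists or families and neighbours of the limits. The code of the selection rule was checked on simulated means without noise, which does not measure an error rate of the rule. Python 3.11.15, pandas and NumPy were used.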

Additional observations from a re-analysis of the deposited data

How the results depend on the processing

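The number of members depended on the limits. It was 146, 46 and 18 with a minimum control mean of 5, 20 and 50, 363 with no minimum, and 311 and 27 at 1.5-fold and 3-fold, instead of 86. A pseudocount of 5 left 57 members and a median log2 ratio of 1.13 instead of 1.28, while a pseudocount of 1 left 77. Scaling both groups to the same sum gave 99, and centring on the median ratio gave 86. Without the haemoglobin, pterin, purine and pigment cell genes, an alternative chosen after seeing the data, 70 members remained, with a median of 1.22. On the pigment list 7 genes were at least 2-fold higher with a minimum control mean of 5, 2 with a minimum of 20 and 2 with a pseudocount of 5, instead of 4. On the muscle list 1 was higher with a minimum of 5. When lists were matched by the same symbol only, also chosen after seeing the data, 1 dI2 and V1 marker and 1 V0v gene were higher, instead of 3 each. No paired analysis was possible because the columns hold group means and carry no replicate numbers, and for the same reason no sample could be left out. The planned promoter motif comparison was not run, because no promoter sequences were available. The planned neighbouring gene comparison was not run, because only 44 of 86 members matched the RefSeq gene table by symbol.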

Other observations

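Several lists held no member. Heat shock and chaperone genes had a median log2 ratio of 0.15 (morphant over control) over 32 genes with a control mean of at least 10. The 3 that were at least 2-fold lower in morphants, the group kept at the higher temperature, were inducible Hsp70 genes. *hsp70l* had means of 2451 in controls and 1223 in morphants, *hsp70.3* had 2611 and 1132, and *hsp70.1* had 768 and 369. Of 22 cell cycle genes, 19 had a ratio above 1, but 0 reached 2-fold in either direction, with a median log2 ratio of 0.20 and a highest value of 0.46. The *hox* genes, which mark position along the body axis, had a median of -0.01 over 39 genes, with 0 at least 2-fold higher or lower. Neuropeptide and hormone genes were mostly lower, with 10 of 11 below a ratio of 1 and a median of -0.43, in contrast to the member *npb*. None of these values has a replicate check.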
